A study of Aspergillus nidulans with 6 samples.

Results

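The 9 genes described here, from the filamentous fungus Aspergillus nidulans, encode enzymes and 3 regulators. The enzymes serve acetate use, the glyoxylate cycle and gluconeogenesis, except that of mcsA, which serves propionyl-CoA use. The regulators act on acetate use or gluconeogenesis. All 9 were picked by locus number under a rule that uses no measured value, but with earlier results of these data known. Each was among the 10983 features of the count files. The enzymes are acuD (AN5634), acuE (AN6653), acuF (AN1918), acuG (AN5604), acuJ (AN6279) and mcsA (AN6650), and the regulators are facB (AN0689), acuK (AN7468) and acuM (AN6293). RNA was sequenced from 3 WT libraries (strain LO1362, genotype mcrA+) and 3 mcrA-deleted libraries (strain LO8158, genotype mcrA-). Both strains grew from 1000000 spores in 150 ml of liquid glucose medium for 1 day at 37 °C, and both received uridine, uracil, pyridoxine and riboflavin. The labels name no other allele, and with 1 strain for each genotype, the deletion and any other difference between LO1362 and LO8158 cannot be told apart. The libraries are labelled as replicates without mention of separate cultures, so the p-values cover only the spread among these 6 libraries, part of which may be technical.

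A fungus living on acetate or on fatty acids makes its sugars from acetyl-CoA. The glyoxylate cycle, run by isocitrate lyase and malate synthase, builds C4 acids from acetyl units without losing carbon as CO2, and gluconeogenesis then carries the carbon from oxaloacetate up to sugar phosphates through phosphoenolpyruvate carboxykinase and fructose-1,6-bisphosphatase. In A. nidulans the zinc-cluster protein FacB activates genes of acetate use, AcuK and AcuM are related proteins needed for gluconeogenic gene expression, and the repressor CreA lowers many genes of alternative carbon use when glucose is present. All libraries here came from glucose cultures, but the glucose left at harvest is not given. In a bulk sample, a change in the share of hyphae that express a gene and a change per hypha cannot be told apart.

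The libraries held between 3374534 and 6051839 counts. The feature AN8694, known from background as the mcrA locus, had a level of 152 ± 6.21 CPM (counts per 1000000 counts after TMM scaling, mean ± SD, n = 3) in WT and of 72.7 ± 14.6 CPM after deletion, with groups that did not overlap. It still held counts in every mcrA-deleted library. WT replicate 3 had a score of -38.0 on the second principal component, against 8.85 and 18.9 for WT replicates 2 and 1, and the mitochondrial share of counts was 1.06% in mcrA-deleted replicate 1 against 0.0593% to 0.159% elsewhere. For the 9 genes and the 19 loci of the wider pathway, calls that change without these libraries are given beside the genes concerned. For features named as neighbours or for their likeness, such as AN5603 and AN10552, such changes were not examined.

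The set did not move as a unit. All 9 genes had enough counts to be tested, and edgeR's quasi-likelihood test, adjusted by Benjamini-Hochberg over all 7852 tested features (called at an adjusted p under 0.05) found mcsA higher in the mcrA-deleted libraries, acuD and acuG lower, and no call for the other 6. Over all tested features the test called 29.8%, with 16.1% higher and 13.7% lower (1265 and 1078 features, or 1660 and 639 with total counts in place of TMM scaling). The share of the set called, 3 of 9, therefore lay near the background. The median log2 fold change of the 9 genes was 0.08, against 0.00 over all tested features, and their values ran from -1.68 to 1.57. Groups did not overlap for 4 of the 9 genes (acuD, acuG, mcsA and facB), where 48.9% of all tested features had groups that did not overlap. Together the 9 genes took 0.111% to 0.193% of counts in WT and 0.136% to 0.185% in the mcrA-deleted libraries, so the summed share overlapped between genotypes.

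**Figure D1:**
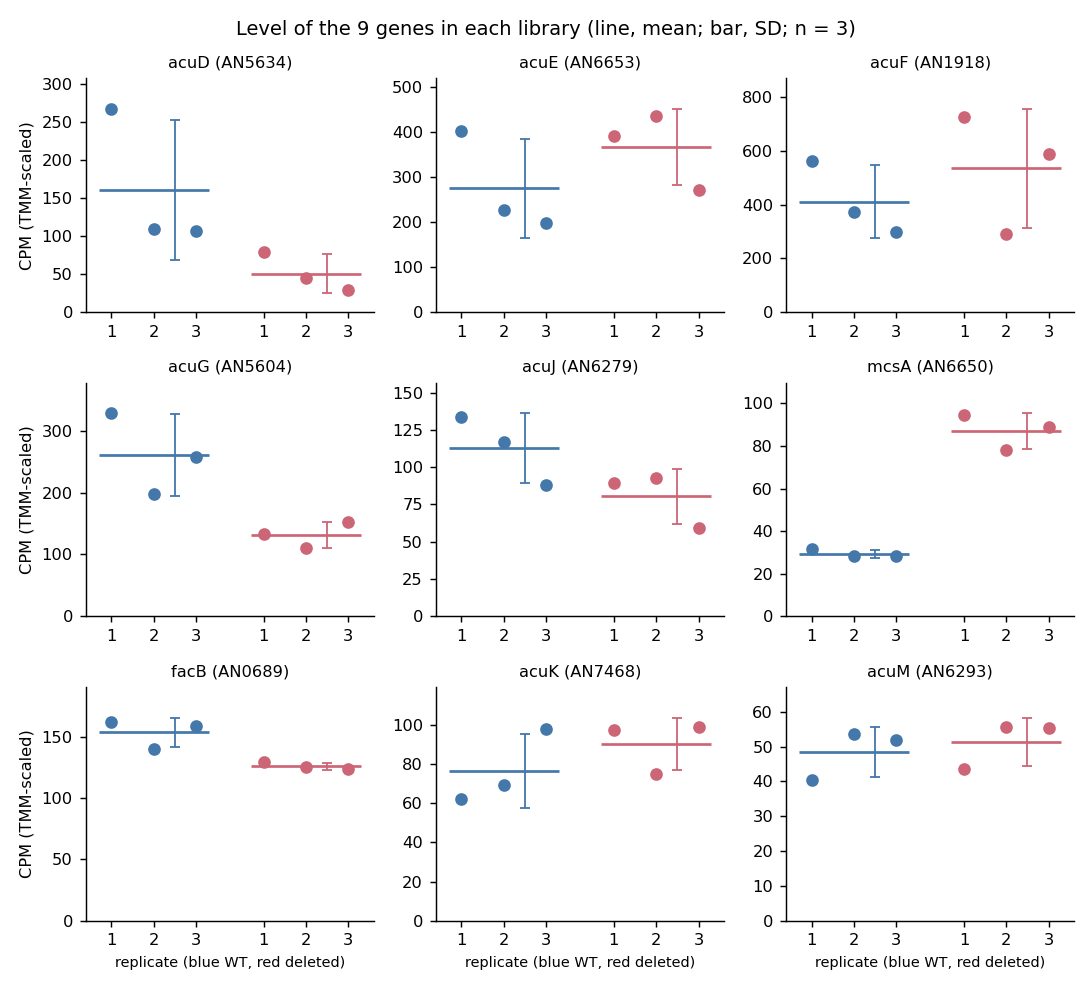
Level of each gene in CPM (y axis, from 0) in the 3 WT libraries (blue) and the 3 mcrA-deleted libraries (red), with lines at the means and bars for the SD (n = 3). The groups are fully separated for acuD, acuG, mcsA and facB, and acuD in WT replicate 1 stands at 267.7 CPM, far above the other WT libraries.

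Isocitrate lyase and malate synthase catalyse the pair of steps that belong to the glyoxylate cycle alone. The isocitrate lyase gene acuD (chromosome V, 2141430 to 2143759, plus strand) had 267.7, 108.9 and 106.8 CPM in WT replicates 1 to 3 and 79.21, 44.05 and 28.26 CPM in mcrA-deleted replicates 1 to 3. Every mcrA-deleted library lay below every WT library, but the WT libraries themselves spread over 2.51-fold and the mcrA-deleted ones over 2.80-fold. The level fell 3.21-fold, a log2 fold change of -1.68 (SE 0.481, 95% interval -2.81 to -0.56; adjusted p = 0.0359, edgeR's quasi-likelihood test). The call depended on which libraries were used: the value was -1.11 without WT replicate 1 (adjusted p = 0.0813), -1.90 without WT replicate 2 (0.0517), -1.59 without mcrA-deleted replicate 2 (0.114) and -1.39 without mcrA-deleted replicate 3 (0.101), all in the same test. Over all 14 alternatives the adjusted p of acuD ran from 0.00177 to 0.114. With WT replicate 3 and mcrA-deleted replicate 1 both left out, the value was -2.37. The sign was negative in all 14.

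The malate synthase gene acuE (chromosome I, 2741905 to 2743948, minus strand) had 401.1, 226.1 and 196.9 CPM in WT and 391.8, 435.1 and 270.9 CPM in the mcrA-deleted libraries. The groups overlapped, with WT replicate 1 above mcrA-deleted replicates 1 and 3. The log2 fold change was 0.41 (SE 0.304, 95% interval -0.30 to 1.12) and did not pass (adjusted p = 0.335, edgeR). The interval leaves room for a rise of 1.12 on the log2 scale. The value was 0.78 without WT replicate 1 (adjusted p = 0.0637), 0.23 without WT replicate 3 and 0.17 when mcrA-deleted replicate 1 was left out as well, and it passed in 0 of 14 alternatives (adjusted p 0.0637 to 0.707). The last 30 bases of acuE overlap AN6652 on the other strand, 1.47% of the length of acuE, and the use of strand in counting is not given. AN6652 held only 80 to 139 counts per library, against 813 to 2232 for acuE.

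The balance between the glyoxylate cycle genes was compared within libraries, as the ratio of counts per feature length, which does not depend on library scaling. The pair was chosen after the values were seen. The ratio of acuE to acuD was 1.71, 2.37 and 2.10 in WT and 5.64, 11.3 and 10.9 in the mcrA-deleted libraries. The groups did not overlap, and the geometric mean was 4.34-fold higher after deletion, a difference of 2.12 on the log2 scale (SD 0.238 in WT and 0.564 in the mcrA-deleted libraries). The two-sided exact permutation p was 0.1, which is the lowest value possible with 3 libraries in each group, and 0.2 after adjustment over the 6 ratios computed. That adjustment does not cover the choice of the pairs. Leaving out 1 library at a time kept the difference between 1.94 and 2.44.

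Phosphoenolpyruvate carboxykinase, encoded by acuF, takes oxaloacetate to phosphoenolpyruvate, and fructose-1,6-bisphosphatase, encoded by acuG, removes a phosphate near the end of the path. The gene acuF (chromosome VII, 2254709 to 2257425, minus strand) had 562.2, 371.2 and 298.2 CPM in WT and 724.9, 291.0 and 589.1 CPM in the mcrA-deleted libraries. The groups overlapped: mcrA-deleted replicate 2 lay below all WT libraries while replicates 1 and 3 lay above them. The log2 fold change of 0.38 (SE 0.367, 95% interval -0.48 to 1.24) did not pass (adjusted p = 0.460, edgeR). It was -0.08 with WT replicate 3 and mcrA-deleted replicate 1 left out together (adjusted p = 0.877; 0.164 to 0.877 over all alternatives), and between 0.09 and 0.68 with 1 library left out at a time.

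The gene acuG (chromosome V, 2254157 to 2255661, plus strand; fbp1 in the RefSeq table) had 328.3, 197.3 and 257.0 CPM in WT and 133.0, 110.1 and 152.8 CPM in the mcrA-deleted libraries. Every library of the deletion strain was lower than every library of WT. The level fell 1.98-fold, with a log2 fold change of -0.98 (SE 0.217, 95% interval -1.49 to -0.47; adjusted p = 0.0147, edgeR's quasi-likelihood test). Of 14 alternatives 13 kept the call; it was lost without mcrA-deleted replicate 2 (-0.87, adjusted p = 0.059; 0.000578 to 0.059 over all alternatives). The within-library ratio of acuF to acuG, also chosen after the values were seen, was 0.949, 1.04 and 0.643 in WT and 3.02, 1.46 and 2.14 in the mcrA-deleted libraries. The groups did not overlap (2.46-fold, 1.30 on the log2 scale; exact permutation p = 0.1, adjusted 0.2). With WT replicate 3 and mcrA-deleted replicate 1 left out, that difference was 0.83. Per length, acuF was near or below acuG in WT and above it in all mcrA-deleted libraries.

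**Figure D2:**
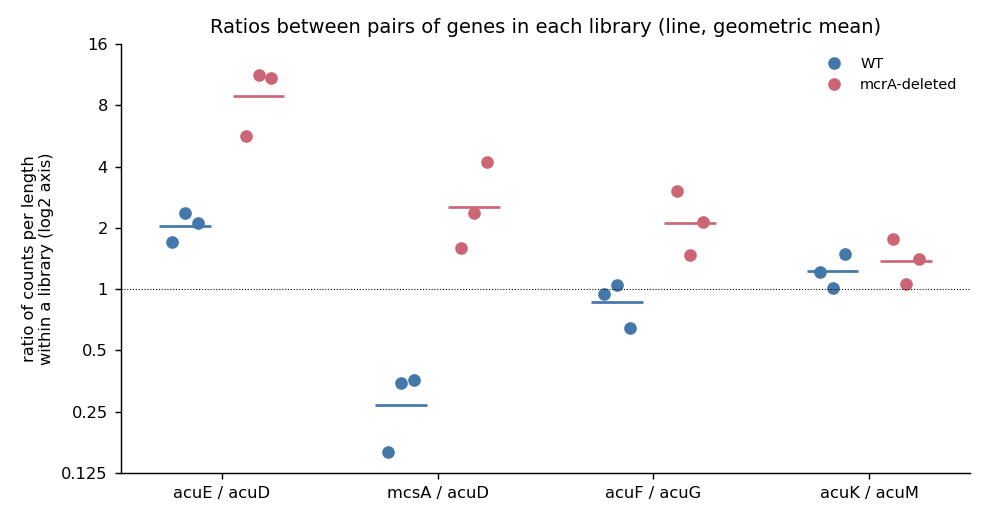
Ratios of counts per feature length between pairs of the genes within each library (log2 axis), in WT (blue) and mcrA-deleted (red) libraries, with lines at the geometric means. The ratios acuE to acuD, mcsA to acuD and acuF to acuG do not overlap between genotypes, whereas acuK to acuM runs from 1.02 to 1.48 in WT and from 1.06 to 1.76 in the mcrA-deleted libraries.

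Carnitine acetyltransferase, encoded by acuJ, moves acetyl groups onto carnitine so that they can pass between peroxisome, cytosol and mitochondrion. The gene acuJ (chromosome I, 674926 to 677540, plus strand) had 133.9, 116.8 and 87.93 CPM in WT and 89.51, 92.39 and 59.38 CPM in the mcrA-deleted libraries. WT replicate 3 lay just under mcrA-deleted replicates 1 and 2, so the groups overlapped. The log2 fold change was -0.49 (SE 0.221, 95% interval -1.01 to 0.03) and did not pass (adjusted p = 0.131, edgeR). It passed without WT replicate 3 (-0.64, adjusted p = 0.0493), and also when mcrA-deleted replicate 1 was left out as well (-0.72, adjusted p = 0.0421; 0.0284 to 0.316 over all alternatives).

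Methylcitrate synthase, encoded by mcsA, joins propionyl-CoA to oxaloacetate in the mitochondrion and so opens the path that disposes of propionate. The gene mcsA (chromosome I, 2731856 to 2733592, minus strand) had 31.61, 28.10 and 28.34 CPM in WT and 94.37, 77.97 and 88.67 CPM in the mcrA-deleted libraries. The replicates lay close together in both groups, within 1.13-fold in WT and 1.21-fold after deletion, and the groups were far apart. The level rose 2.96-fold, a log2 fold change of 1.57 (SE 0.132, 95% interval 1.26 to 1.87; adjusted p = 0.000802, edgeR's quasi-likelihood test). The call held in all 14 alternatives, with values between 1.48 and 1.74. The ratio of mcsA to acuD within libraries was 0.158, 0.346 and 0.356 in WT and 1.60, 2.37 and 4.21 in the mcrA-deleted libraries. Thus mcsA was the lower of the pair in every WT library and the higher in every mcrA-deleted library. This pair, the gene called higher and the gene that fell most, was chosen after the values were seen. The exact permutation p of the log2 ratio was 0.1, adjusted 0.2. Both genes already had groups that did not overlap, in opposite directions, so this outcome was fixed beforehand and is no further evidence.

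None of the 3 regulator genes was called. The acetate regulator gene facB (chromosome VIII, 2781835 to 2785245, plus strand) had 162.2, 140.2 and 159.1 CPM in WT and 129.3, 125.1 and 123.9 CPM in the mcrA-deleted libraries. The groups did not overlap, with mcrA-deleted libraries at 82.0% of WT in the mean. The log2 fold change was -0.29 (SE 0.117, 95% interval -0.56 to -0.01) and did not pass (adjusted p = 0.102, edgeR); the adjusted p lay between 0.1 and 0.557 over the alternatives.

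The gene acuK (chromosome IV, 1633066 to 1636558, plus strand) had 62.35, 69.25 and 97.86 CPM in WT and 97.23, 75.04 and 98.90 CPM in the mcrA-deleted libraries. Its partner acuM (chromosome I, 631650 to 634392, plus strand) had 40.33, 53.55 and 51.84 CPM in WT and 43.47, 55.55 and 55.29 CPM in the mcrA-deleted libraries. The groups overlapped for both. The log2 fold changes were 0.24 for acuK (SE 0.201, 95% interval -0.23 to 0.71; adjusted p = 0.392) and 0.08 for acuM (SE 0.167, 95% interval -0.31 to 0.48; adjusted p = 0.732), and neither passed in edgeR's quasi-likelihood test. The interval of acuM excludes a doubling or halving of its level, taken as 1 on the log2 scale, and so do those of acuK and facB. The within-library ratio of acuK to acuM did not separate the genotypes (log2 difference 0.17; exact permutation p = 0.6, adjusted 0.72). The ratio of acuK to facB also overlapped between genotypes (0.54; exact permutation p = 0.2, adjusted 0.3), as did that of acuE to acuF (0.12; exact permutation p = 1, adjusted 1).

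**Figure D3:**
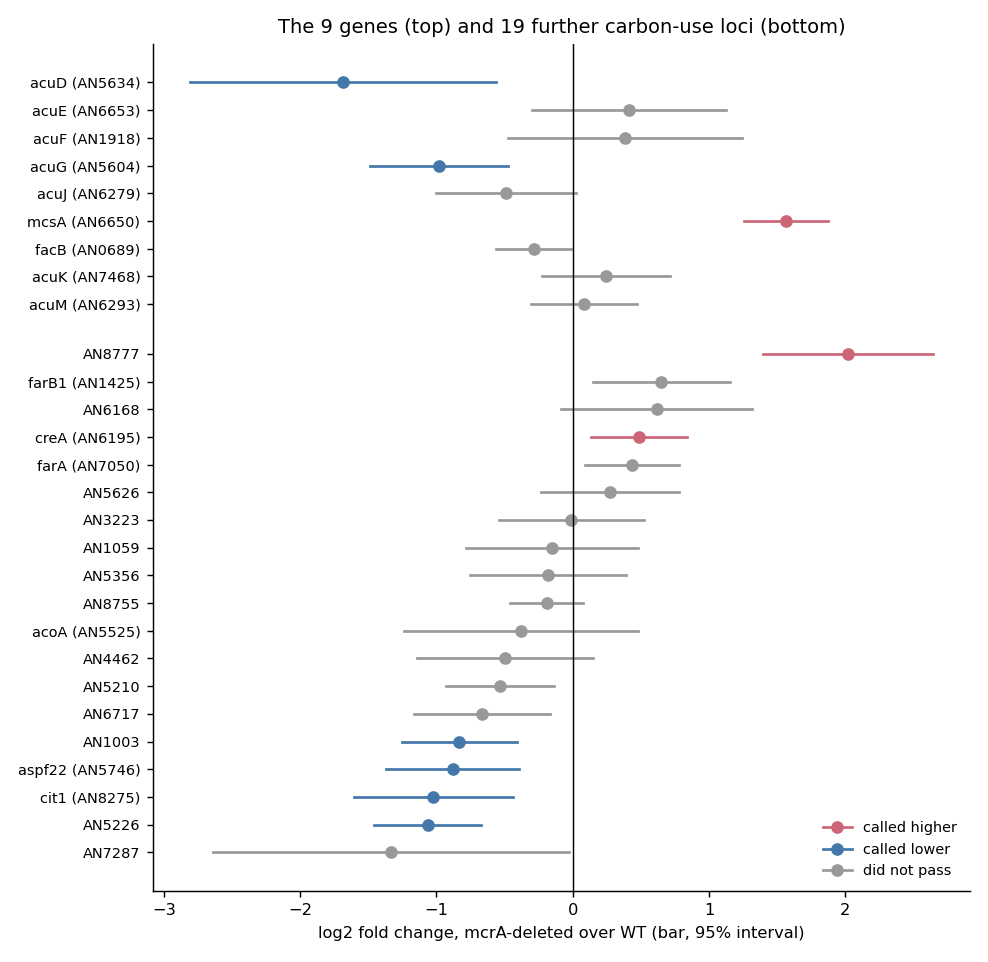
Log2 fold change, mcrA-deleted over WT (x axis), with its 95% interval, for the 9 genes and for 19 further loci of carbon use, coloured by whether edgeR's test called them higher (red), lower (blue) or neither (grey). Among the 9 genes mcsA is called at 1.57, acuD at -1.68 and acuG at -0.98, and acuD has the widest interval.

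The order of transcript levels was read on CPM per kilobase of feature, with the length taken from start to end, introns included. In WT the order was acuG (173 ± 43.6), acuF (151 ± 50.2), acuE (134 ± 54.0), acuD (69.2 ± 39.6), facB (45.1 ± 3.50), acuJ (43.2 ± 8.88), acuK (21.9 ± 5.39), acuM (17.7 ± 2.62) and mcsA (16.9 ± 1.13), each as mean ± SD with n = 3. Neighbours in this order overlapped between libraries at every step but that from acuJ to acuK. In the mcrA-deleted libraries the order was acuF (197 ± 81.7), acuE (179 ± 41.6), acuG (87.7 ± 14.2), mcsA (50.1 ± 4.79), facB (37.0 ± 0.824), acuJ (30.8 ± 6.99), acuK (25.9 ± 3.81), acuD (21.7 ± 11.2) and acuM (18.8 ± 2.52). There the steps from acuE to acuG, from acuG to mcsA, from mcsA to facB and from facB to acuJ were free of overlap.

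Placed among all tested features by the same measure, the genes were transcribed at middle to high levels in these cultures. In WT acuG, acuF and acuE stood above 92.5%, 91.5% and 90.7% of tested features, and acuD above 82.0%. After deletion acuD stood above 53.9% of tested features, while mcsA moved from above 47.8% to above 77.2%. The regulators kept places between 49.3% and 74.1% in WT and between 49.0% and 69.8% in the mcrA-deleted libraries.

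Spread between libraries of a genotype differed among the genes. The biological coefficient of variation fitted by edgeR was 40.3% for acuD, 32.7% for acuF and 27.8% for acuE, against 22.9% in common over all features. It was 13.7% for mcsA and 13.4% for facB. In the WT group all genes but acuK and acuM had their highest value in replicate 1, where acuK and acuM had their lowest. In the mcrA-deleted group the highest values were divided among the libraries: acuD and acuF were highest in replicate 1, acuE and acuJ in replicate 2 and acuG in replicate 3. Whether culture, harvest or library preparation differed for WT replicate 1 is not given, and its part in the spread was not tested.

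Likeness between profiles was measured as the root mean square difference of log2 CPM over the 6 libraries, after each gene was centred on its own mean. Among the 9 genes, acuK and acuM lay closest to each other (0.275), but facB lay almost as close to acuM (0.29) and to acuJ (0.294). The nearest gene to acuD was acuG (0.662), and acuD and mcsA lay farthest apart (1.69). Over all tested features the 4 nearest to acuD were AN6774 (0.298), AN5318 (0.312), AN0418 (0.318) and AN10552 (0.324). Of these, AN5318 (adjusted p = 0.039, edgeR) and AN10552 (0.00548) were called lower, and AN6774 (0.0643) and AN0418 (0.0515) did not pass. As an example, AN0418 had 245.9, 145.9 and 77.27 CPM in WT and 86.08, 31.19 and 26.62 CPM in the mcrA-deleted libraries. The 4 nearest to facB were AN3367 (0.0366), AN2066 (0.0441), AN7534 (0.0452) and AN0883 (0.0457), none of them called. These distances describe 6 libraries that differ by genotype and carry no test. The genotype difference is part of each distance, so the calls of features near acuD or facB partly follow from how they were picked. They are no further evidence.

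The 9 genes lie on 5 chromosomes. The genes mcsA and acuE are 8312 bases apart on chromosome I with 2 features between them, and mcsA rose while acuE did not pass. On the same chromosome acuM and acuJ are 40533 bases apart, and on chromosome V acuD and acuG, which both fell, are 110397 bases apart with 36 features between them. Of the 18 features next to the 9 genes, 14 were tested and 5 called, 2 higher and 3 lower (35.7% of those tested, against 29.8% of all tested features). Beside acuG, which fell, the feature AN5603 rose by 3.37 on the log2 scale (SE 0.445; adjusted p = 0.00269, edgeR), from 28.6 to 294 CPM, 1447 bases away. It was singled out after its value was seen.

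The wider pathway was followed in 19 further loci listed from background knowledge of acetate activation and transport, the carnitine shuttle, the citrate cycle and its refilling, propionate and amide use, carbon regulators and the glycolytic steps that oppose gluconeogenesis. The RefSeq table gives a symbol for 6 of them, and the other 13 are given by locus number only. All 19 were tested: 2 rose, 4 fell and 13 missed the threshold, with a median log2 fold change of -0.19 against 0.00 over all tested features. The share called, 6 of 19, again lay near the 29.8% of the background. The count moved with the libraries used: without WT replicate 3 there were 1 rise and 8 falls, and 2 rises and 9 falls when mcrA-deleted replicate 1 was left out as well. It was 1 rise and 2 falls without WT replicate 1 or mcrA-deleted replicate 2, 2 and 2 without WT replicate 2, and 1 and 4 without mcrA-deleted replicate 1 or 3.

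Among the loci with a symbol was the citrate synthase gene cit1 (AN8275), whose enzyme joins acetyl-CoA to oxaloacetate. This gene had 1178, 1019 and 1115 CPM in WT and 704.3, 559.2 and 366.5 CPM in the mcrA-deleted libraries. It fell by 1.02 on the log2 scale (SE 0.249; adjusted p = 0.0208, edgeR), although leaving out WT replicate 1, WT replicate 2 or mcrA-deleted replicate 2 gave an adjusted p of 0.056, 0.0547 and 0.0698 (all alternatives: 0.000502 to 0.0698). The aconitase gene acoA (AN5525), whose product makes the isocitrate that isocitrate lyase splits, went from 1126 ± 427 CPM in WT to 867 ± 358 CPM after deletion and did not pass (-0.38, SE 0.367; adjusted p = 0.466). It passed only with WT replicate 3 and mcrA-deleted replicate 1 left out together (-0.94, adjusted p = 0.0483; 0.0483 to 0.958 over all alternatives). The gene aspf22 (AN5746), named for the enolase allergen of Aspergillus fumigatus, fell from 3806 ± 194 to 2066 ± 361 CPM (-0.88, SE 0.208; adjusted p = 0.0187, edgeR). Leaving out the same libraries one at a time gave an adjusted p of 0.0594, 0.0614 and 0.072 (all alternatives: 1.52e-05 to 0.072).

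The carbon catabolite repressor gene creA (AN6195), whose product lowers genes of alternative carbon use in glucose, had 225.6, 288.6 and 227.5 CPM in WT and 327.1, 363.9 and 349.8 CPM in the mcrA-deleted libraries. The groups did not overlap and the call was a rise of 0.49 on the log2 scale (SE 0.150; adjusted p = 0.0457, edgeR). With 1 library left out at a time the values were 0.42 to 0.61 and the call was lost in 5 of 6 cases, as it was in 7 of all 14 alternatives (adjusted p 0.0138 to 0.145). The fatty acid regulator genes farA (AN7050; 0.43, SE 0.146; adjusted p = 0.0593) and farB1 (AN1425; 0.65, SE 0.215; adjusted p = 0.0564) had groups that did not overlap but did not pass. In the alternatives farA passed in 2 of 14 (adjusted p 0.0359 to 0.181) and farB1 in 4 of 14 (0.0418 to 0.167), including 0.59 (adjusted p = 0.0418) with WT replicate 3 and mcrA-deleted replicate 1 both left out.

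Among the loci without a symbol, AN8777 had 22.45, 29.25 and 18.17 CPM in WT and 66.06, 122.0 and 96.45 CPM in the mcrA-deleted libraries, a rise of 2.02 on the log2 scale (SE 0.268; adjusted p = 0.00271, edgeR). AN5226 fell from 721 ± 26.5 to 345 ± 57.5 CPM (-1.06, SE 0.168; adjusted p = 0.00465), and AN1003 fell from 422 ± 40.6 to 237 ± 44.9 CPM (-0.83, SE 0.181; adjusted p = 0.0137). The calls of these 3 loci held in all 14 alternatives. AN7287 had 46.65, 19.67 and 9.689 CPM in WT and 14.58, 8.187 and 7.781 CPM in the mcrA-deleted libraries and did not pass (-1.33, SE 0.558; adjusted p = 0.109). As for acuD, its highest value was in WT replicate 1, without which the log2 fold change was -0.56. It passed without WT replicate 3 (-1.71, adjusted p = 0.0201) and with mcrA-deleted replicate 1 left out as well (-2.04, adjusted p = 0.0125; all alternatives: 0.0125 to 0.366, with 3 of 14 passing). AN5626, at 446 ± 115 CPM in WT and 540 ± 53.1 CPM after deletion (0.27, SE 0.216; adjusted p = 0.370), AN1059 (-0.15, SE 0.270), AN5356 (-0.18, SE 0.245), AN5210 (-0.53, SE 0.169; adjusted p = 0.0512) and AN3223 (-0.01, SE 0.228) did not pass either. AN5210 passed in 5 of 14 alternatives, among them without WT replicate 3 (-0.60, adjusted p = 0.031) and with mcrA-deleted replicate 1 left out as well (-0.65, adjusted p = 0.0358). AN1059 passed in 1 of 14, without WT replicate 3 (-0.42, adjusted p = 0.0424), and AN5626, AN5356 and AN3223 in 0. Also called lower in the absence of WT replicate 3 was AN4462 (-0.73, adjusted p = 0.0286), which with all libraries stood at -0.50 (adjusted p = 0.209) and without both libraries at -0.89 (adjusted p = 0.0111). AN6717 (-0.67, adjusted p = 0.0512) passed without both libraries (-0.78, adjusted p = 0.0458) and in 3 of 14 alternatives in all. AN4462 and AN6717 are named for these changes after their values were seen.

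**Figure D4:**
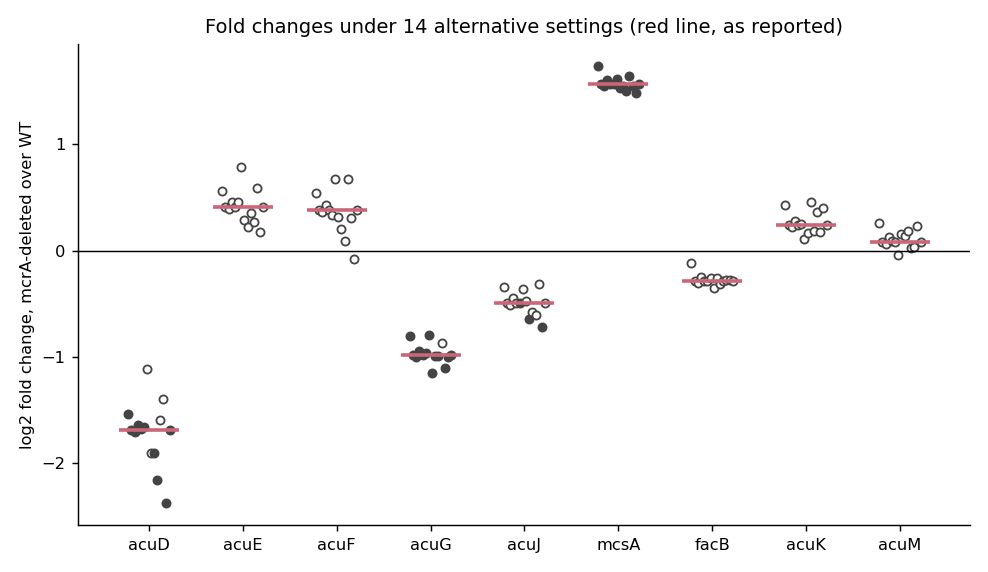
Log2 fold change of each of the 9 genes (y axis) as reported (red line) and under 14 alternative settings (points; filled where the adjusted p was under 0.05, open otherwise). The points of mcsA are all filled and lie between 1.48 and 1.74, whereas those of acuD run from -2.37 to -1.11 with 4 open.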

How the data were processed

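The authors deposited raw read counts per gene feature, 1 file for each library and not normalized, per the file headers; the files also give each feature's position, and the coordinates above are theirs. CASAVA and HISAT (version 1) are named in the submitters' processing notes, and polyadenylated RNA was made into directional libraries per the labels' protocols. For the counting tool, strand use and annotation: not given in the sources used here. RefSeq's table of assembly ASM1142v1 was used for symbols only: all 9 loci matched and 5 had a symbol there.

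The counts were analysed with edgeR 4.0.16 in R 4.3.3: filterByExpr (minimum count 10; 7852 features kept, 3131 left out), TMM scaling, and the quasi-likelihood test with genotype as the only term, two-sided, with Benjamini-Hochberg adjustment over all tested features. Standard errors are the absolute log2 fold change divided by the root of F. Alternatives were total-count and RLE scaling, no filter, a mean count of at least 50, the DESeq2 1.42.0 Wald test, a replicate block, leaving out libraries, and leaving out mitochondrial features. The test was checked on simulated data with 99 tested features changed at each of the sizes 1 and 2 on the log2 scale. It recovered 50.5% and 91.9% of them, and called 0.146% of unchanged features. Far fewer features changed there than were called here, so these shares may differ in the data. The chi-square between replicates of a group was 10.3 to 55.8 per degree of freedom, above sampling noise for each pair, and all 6 libraries were kept as separate. All 6 count columns were mapped to samples.

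The genes, the list of 19 loci, the tests and the alternatives were chosen with earlier results of these data known. Named are all 9 genes, listed loci of a fixed selection or called among the list, and the 4 features nearest to acuD and to facB. Values are also given for acoA, farA, farB1, AN4462 and AN6717, which were neither in that selection nor called with all libraries. The ratios, their refits and AN5603 were chosen after the values were seen.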

Additional observations from a re-analysis of the deposited data

How the results depend on the processing

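Under 14 alternatives the call of mcsA held in all, that of acuG in 13 and that of acuD in 10; acuE, acuF, facB, acuK and acuM passed in none, and acuJ in 3. With total counts in place of TMM, the fold changes of all tested features shifted by 0.171 (log2) in the median, and 1660 genes were higher in place of 1265 and 639 lower in place of 1078. Leaving out 1 library at a time gave 758 to 1496 genes higher and 618 to 1171 lower, 0 to 3 of the 9 genes lower (2 with all libraries), and 1 to 2 list loci higher and 2 to 8 lower. The number of list loci higher was 4 with total counts, 1 without a count filter and 4 with a mean count of at least 50; 9 were lower when both WT replicate 3 and mcrA-deleted replicate 1 were left out. Sign changes were seen for 5 genes, none of them called with all libraries: acuF (-0.082 without both of those libraries), acuM (-0.039 to 0.18), AN1059 (-0.42, where it passed, to 0.071) and AN5356 (-0.37 to 0.010) with 1 library left out, and AN3223 (-0.15 to 0.21 with 1 library left out, 0.18 with total counts, 0.032 with a mean count of at least 50, 0.015 with the replicate block and 0.24 without both libraries). The cause was not tested.

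Whether the replicate numbers pair the libraries was not settled. The deviations of same-numbered libraries from their group means correlated at 0.263, -0.0757 and 0.168 over tested features. For libraries with different numbers the correlations ran from -0.264 to 0.129. With the replicate block 7 list loci were lower in place of 4, and 3 of the 9 genes in place of 2, acuJ being added (-0.49, adjusted p = 0.0284 in the edgeR fit). In that fit acuD stood at -1.66 (adjusted p = 0.00403), with an SE of 0.156 against 0.481 without the block. With 3 libraries a group, an exact permutation test cannot go below 0.1.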
